A study of Mus musculus with 6 samples.

Results

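The naive pluripotency transcription factors Esrrb, Tfcp2l1, Klf2, Klf4, Klf5, Tbx3, Nr5a2, Zfp42, Prdm14 and Nr0b1 were examined in mouse embryonic stem cells in which OCT-4 had been lowered. The 10 genes were taken by symbol from a list of factors of the naive state, and all 10 were found, once each, among the 23238 symbols of the count files. All 10 also passed the filter on low counts that left 13467 genes for testing. Nr0b1 and Prdm14 passed it only through the EWS-OCT-4 libraries, where they are high, so they could only be called higher. The study compared a control stable line carrying EGFP (3 libraries) with a stable line carrying EWS-OCT-4 (3 libraries), in which EWS, the protein of Ewing sarcoma fusions, is joined to OCT4A and GFP. Cells of both lines were Niwa embryonic stem cells of the 129/Ola strain, grown in stem cell medium containing LIF, and received doxycycline (1 µg/ml) to lower their own OCT-4. The labels name neither the promoter of the transgenes nor the number of clones behind a line. Since every library received doxycycline, a rise or a fall here means only a higher or lower level in the EWS-OCT-4 line than in the EGFP line, and the fusion and any other feature in which the lines differ cannot be told apart.

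Naive pluripotency is the state of the early epiblast and of mouse embryonic stem cells kept with LIF. It is held by a network of transcription factors that bind one another's genes alongside OCT-4, SOX2 and NANOG. LIF acts through STAT3 on Klf4 and Tfcp2l1, and relief from the repressor TCF7L1 raises Esrrb, Klf2 and Tfcp2l1. Prdm14 restrains FGF signalling and DNA methylation. Several of these factors also work outside the epiblast: Esrrb and Klf5 act in trophoblast, and Nr5a2 and Tbx3 in extraembryonic or other endoderm.

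The libraries held between 10978025 and 14935887 counts of transcript 3′ ends, so that 1 count was worth 0.0650 to 0.0923 CPM, the per-library unit of scaled counts used throughout. The ribosomal precursor Rn45s made up 5.85% to 6.44% of EGFP tags and 7.36% to 10.5% of EWS-OCT-4 tags. In each line the library numbered 3 stood apart, since chi-square over its degrees of freedom was 23.7 to 32.3 against its 2 partners and 3.96 (EGFP) or 4.21 (EWS-OCT-4) between those partners. Pou5f1, the gene of OCT-4 that doxycycline lowers, had 5, 13 and 10 tags under EGFP, and 18, 21 and 36 under EWS-OCT-4 (log2 1.76, SE 0.51, adjusted p = 0.0108 in edgeR's quasi-likelihood test, and 0.0542 without EWS-OCT-4 replicate 3). Whether its tags can come from the fusion is not given, so they do not check the labels. The 8 stem cell markers (Pou5f1, Sox2, Nanog, Dppa5a, Tdgf1, Utf1, Lin28a and Sall4) summed to 357 to 491.5 CPM in the EGFP line and to 3919 to 4471 CPM in the EWS-OCT-4 line. The 16 trophoblast markers ran the other way, at 5634 to 6378 CPM against 261 to 294 CPM, in libraries that are all labelled embryonic stem cell. These are bulk samples, in which fewer cells of a type and less RNA per cell cannot be told apart.

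All 10 naive factors were higher in the EWS-OCT-4 line. Each passed an adjusted p of 0.05 in edgeR's quasi-likelihood test, where 33.3% of all tested genes were called higher and 67.4% were called in either direction. The libraries of the 2 lines did not overlap for any of the 10, and the same held, with the EWS-OCT-4 libraries above, for 36.0% of all tested genes (72.7% in either direction). The fitted difference was at least 2-fold in 9 of the 10 (21.8% of all tested genes) and at least 4-fold in 8 (10.5%). These tallies include Nr0b1 and Prdm14, for which the filter left only a higher level under EWS-OCT-4 possible. Its median over the 10 was 3.05 on the log2 scale, beside a median of -0.00 (-0.0042) over all tested genes. The factors covered a wide range: Nr5a2 and Klf5 differed least (log2 0.95 and 1.20), whereas Esrrb, Prdm14 and Nr0b1 were nearly without tags in the EGFP line. Separate cultures are not named in the labels, and the p-values therefore measure only the spread among these libraries, which may be technical.

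**Figure D1:**
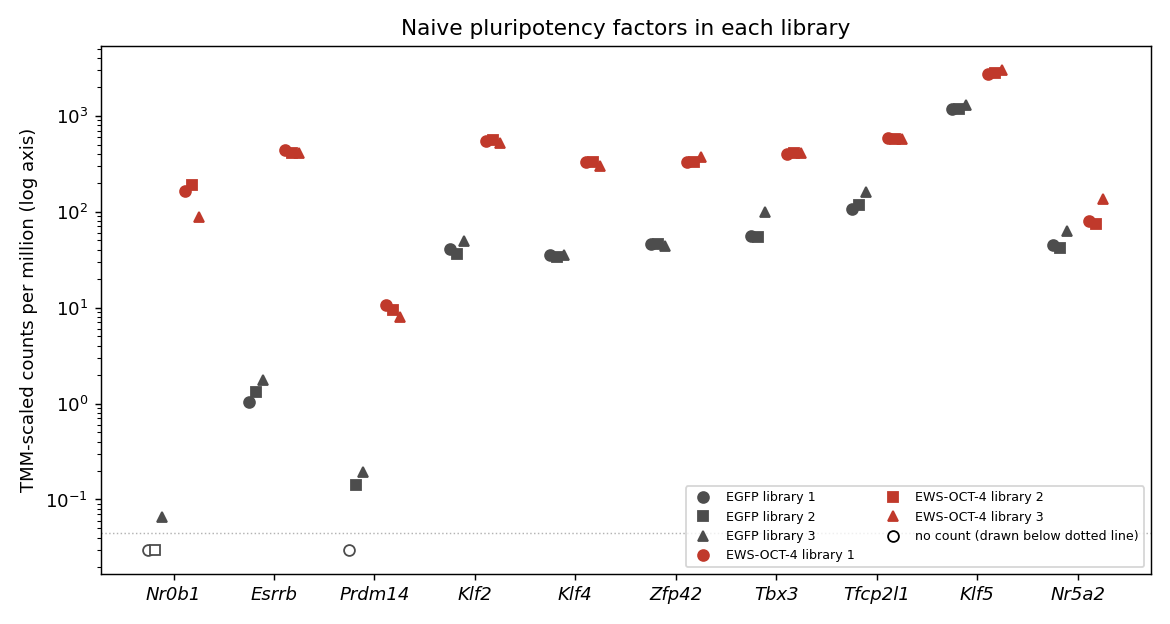
Level of each naive factor in each library, in TMM-scaled CPM on a log axis, with EGFP libraries in grey and EWS-OCT-4 libraries in red (circle, square and triangle for libraries 1, 2 and 3). Every red mark lies above every grey mark of the same gene, with the smallest gap at Nr5a2 (62.4 against 74.3 CPM) and open marks where a library had no count (Nr0b1 in 2 EGFP libraries and Prdm14 in 1).

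The 3 orphan nuclear receptors hold both ends of the range. Nr0b1 (DAX1, a receptor without a DNA-binding domain of the usual kind that acts as a corepressor; chromosome X, 86191764 to 86195947, plus strand) had 0, 0 and 1 counts under EGFP. Its EWS-OCT-4 counts were 1784, 2061 and 1048, or 164, 190.2 and 87.9 CPM. The gene was thus close to absent from the tags of one line and plain in the other, with EWS-OCT-4 replicate 3 lowest of its line. The depth-scaled ratio was 6272 (exact 95% interval 1125 to 247786, counting error only), and it was the third largest fitted rise of all tested genes. Its only EGFP count lay in EGFP replicate 3. Without that library the level was at least 672-fold higher, against a floor of 3 counts per library.

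Esrrb, a receptor that stands beside OCT-4 at many enhancers of stem cells (chromosome 12, 86361117 to 86521628, plus strand), was at 1.04, 1.33 and 1.75 CPM in the EGFP libraries. In the EWS-OCT-4 libraries it was at 435, 413 and 406 CPM. The EGFP values rest on 14, 19 and 27 counts, above the floor of 3 counts in each library. The log2 difference was 8.22 (SE 0.19, adjusted p = 3.8e-09), or 299-fold, and the EWS-OCT-4 libraries agreed within a coefficient of variation of 3.64%. Among all tested genes this rise ranked 41.

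Nr5a2 (LRH-1, a receptor that can activate Pou5f1; chromosome 1, 136842571 to 136960448, minus strand) was at 45.1, 42.2 and 62.4 CPM in the EGFP libraries and at 79.4, 74.3 and 135 CPM in the EWS-OCT-4 libraries. The 2 lines did not overlap, but the lowest EWS-OCT-4 library was only 1.19 times the highest EGFP library. Both libraries numbered 3 lay above the others of their line, and EWS-OCT-4 replicate 3 was 1.76 times the mean of its partners. The log2 difference was 0.95 (SE 0.24, adjusted p = 0.00579), the smallest of the 10, and fell to 0.62 (adjusted p = 0.0107) without EWS-OCT-4 replicate 3. With other single libraries left out, the adjusted p of edgeR's quasi-likelihood test reached 0.0270. When the test was made against a change of 1.5-fold, Nr5a2 was the only factor that did not pass (adjusted p = 0.0549), and 22.8% of all tested genes were called higher.

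The 3 Krüppel-like factors, zinc finger proteins that bind CACCC and GC-rich elements and can stand in for each other in stem cells, differed by unequal amounts. Klf2 (chromosome 8, 72319033 to 72321656, plus strand) was at 40.7, 35.9 and 48.8 CPM in the EGFP libraries and at 544, 558 and 520.5 CPM in the EWS-OCT-4 libraries. Its log2 difference of 3.69 (SE 0.15, adjusted p = 3.7e-08) is 12.9-fold. Klf4, a LIF-STAT3 target and reprogramming factor (chromosome 4, 55527143 to 55532466, minus strand), was at 35.7, 33.4 and 35.5 CPM against 331, 328 and 297 CPM. The libraries of each line lay close together, and the log2 difference was 3.19 (SE 0.12, adjusted p = 2.9e-08). Klf5 (chromosome 14, 99298691 to 99315036, plus strand), which is needed in trophectoderm as well as in the epiblast, was already at 1185, 1185 and 1297 CPM in the EGFP libraries. It stood at 2694, 2758 and 2995 CPM in the EWS-OCT-4 libraries, a log2 difference of 1.20 (SE 0.11, adjusted p = 5.9e-06), or 2.30-fold.

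Tfcp2l1, a CP2-family factor downstream of LIF-STAT3 (chromosome 1, 118627945 to 118685168, plus strand), was at 108, 118 and 160.4 CPM in the EGFP libraries and at 586, 569 and 578 CPM in the EWS-OCT-4 libraries. EGFP replicate 3 was the highest of its line, while the EWS-OCT-4 libraries had a coefficient of variation of 1.53%, the lowest of the 10 factors in that line. The log2 difference was 2.17 (SE 0.16, adjusted p = 1.3e-06). Tbx3, a T-box repressor and activator that supports Nanog expression (chromosome 5, 119670669 to 119684724, plus strand), showed the same shape. It was at 55.9, 54.4 and 99.9 CPM in the EGFP libraries and at 398, 406 and 412 CPM in the EWS-OCT-4 libraries. EGFP replicate 3 held 1.81 times the mean of its partners, and the EWS-OCT-4 libraries lay close together. The log2 difference was 2.53 (SE 0.22, adjusted p = 5.1e-06), and between 2.36 and 2.87 when single libraries were left out. In GENCODE M21 the antisense gene Tbx3os1 overlaps the 5′ end of Tbx3. It has no row in the count files, and the 3′ ends, which the libraries tag, of the 2 genes lie outside each other.

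Zfp42 (REX1, a zinc finger protein and long-used stem cell marker; chromosome 8, 43295063 to 43306980, minus strand) was the steadiest factor in the EGFP line, at 45.4, 46.2 and 44.2 CPM. It stood at 325, 328 and 370.0 CPM in the EWS-OCT-4 libraries. All 3 EGFP values lay within a coefficient of variation of 2.16%, and the log2 difference was 2.91 (SE 0.12, adjusted p = 4.6e-08), or 7.53-fold. Prdm14, a PR-domain protein that recruits repressors to FGF receptor and DNA methyltransferase genes (chromosome 1, 13113457 to 13127163, minus strand), was the factor with the fewest tags. Its EGFP counts were 0, 2 and 3, and its EWS-OCT-4 counts 115, 103 and 95, or 10.6, 9.50 and 7.97 CPM. EGFP counts of 3 or fewer lie at the floor, so the EGFP level is poorly known. The fitted log2 difference was 6.22 (SE 0.54, adjusted p = 4.4e-06) and the depth-scaled ratio 80.2 (exact 95% interval 34.0 to 249, counting error only). Without EGFP replicate 3 the ratio was 129 (35.4 to 1069).

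**Figure D2:**
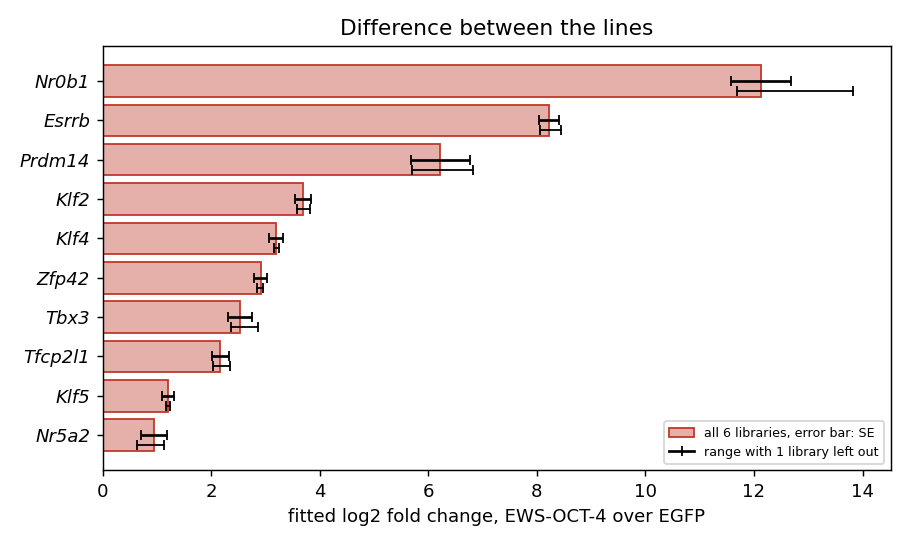
Fitted log2 fold change of each naive factor, EWS-OCT-4 over EGFP, as bars from 0 with the SE, and below it the range of values when 1 library at a time was left out. All ranges stay above 0, from 0.62 to 1.13 for Nr5a2 up to 11.68 to 13.82 for Nr0b1, whose fitted value rests on 1 EGFP count and depends on the prior count.

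The promoters of 3 factors are shown because OCT-4 binds the octamer element, found in Zfp42, and because Klf4 and Nr0b1 held the most and the fewest matches to the KLF and SP element among matched members with 1 window. RefSeq windows of 300 bases (250 before and 50 after a start site, build GRCm38.p6) were matched for 7 of the 10 factors by symbol (9 windows, as Esrrb and Nr5a2 have 2 each). In Zfp42 (chr8:43306960-43307259, minus strand) the capitals mark the octamer, and in Klf4 (chr4:55532426-55532725, minus strand) and Nr0b1 (chrX:86191525-86191824, plus strand) they mark the KLF and SP element.
Zfp42: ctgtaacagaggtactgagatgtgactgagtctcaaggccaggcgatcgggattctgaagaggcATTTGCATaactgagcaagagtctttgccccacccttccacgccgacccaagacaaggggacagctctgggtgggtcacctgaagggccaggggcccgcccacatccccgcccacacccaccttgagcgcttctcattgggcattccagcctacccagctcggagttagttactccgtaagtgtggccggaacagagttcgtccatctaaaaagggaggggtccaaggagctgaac
Klf4: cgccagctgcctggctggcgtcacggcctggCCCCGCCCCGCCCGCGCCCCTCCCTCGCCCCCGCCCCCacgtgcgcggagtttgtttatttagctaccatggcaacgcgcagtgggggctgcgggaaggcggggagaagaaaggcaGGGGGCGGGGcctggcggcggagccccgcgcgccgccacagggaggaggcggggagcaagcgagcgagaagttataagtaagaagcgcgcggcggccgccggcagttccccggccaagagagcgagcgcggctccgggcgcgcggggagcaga
Nr0b1: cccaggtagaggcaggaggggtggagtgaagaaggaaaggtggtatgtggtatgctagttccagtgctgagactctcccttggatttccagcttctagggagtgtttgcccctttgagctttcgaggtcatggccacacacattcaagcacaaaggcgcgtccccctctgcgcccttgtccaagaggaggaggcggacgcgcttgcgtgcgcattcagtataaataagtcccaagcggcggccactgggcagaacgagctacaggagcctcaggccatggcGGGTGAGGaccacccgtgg

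The octamer ATGCAAAT, read on both strands, was found in 1 of the 9 windows, that of Zfp42, beginning 186 bases before the start site. Of all 32851 RefSeq windows of this length, 1.74% held it. The KLF and SP element CCNCNCCC, whose matches can overlap each other, was in 8 of the 9 windows and in 49.5% of all windows. Klf4 held 9 such matches, Esrrb 8 in 1 window and Nr0b1 1. The element TCAAGGTCA, bound by ESRRB and NR5A2, was in none of the 9 (0.423% of all windows). The TFCP2L1 element, CCAG and CCAG with any 6 bases between, was also in none (3.44%). The STAT element TTCNNNGAA was in 1 Esrrb window (8.30% of all windows). These matches describe letters and not binding, which was not measured here.

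Within the EGFP line most naive factors were higher in the library that stood apart, by unequal amounts. EGFP replicate 3 lay above the mean of EGFP replicates 1 and 2 for 8 of the 9 factors with a value in both, with a median log2 ratio of 0.51, whereas 50.2% of all tested genes did (median 0.00, or 0.00133). Tbx3 (0.86) and Esrrb (0.56) were furthest above among factors with over 10 counts per library, and Zfp42 (-0.05) was the one below. Klf5 (0.13) and Klf4 (0.04) were only slightly above, and the value of Prdm14 rests on EGFP counts of 0, 2 and 3. In the EWS-OCT-4 line, library 3 was above its partners for 5 factors and below for 5, from -1.01 for Nr0b1 to 0.82 for Nr5a2. In the same EGFP replicate 3 the 8 stem cell markers summed to 491 CPM, against 357 and 367 CPM in its partners. The trophoblast markers summed to 5634 CPM there, against 6378 and 6299 CPM, and the primitive endoderm markers to 651 CPM against 903 and 916 CPM. Single markers of both lists moved in either direction. Krt8 was at 1491 CPM there against 1917 and 1858 CPM, but Gata2 at 467 against 391 and 396 CPM and Cdx2 at 37.4 against 22.6 and 24.0 CPM. Sparc was at 228 against 394 and 395 CPM, but Gata6 at 36.7 against 26.1 and 30.7 CPM. What part the mix of cell types has in the higher naive factors of EGFP replicate 3 was not tested. With both libraries numbered 3 left out, all 10 factors remained called higher, with a median of 3.08.

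**Figure D3:**
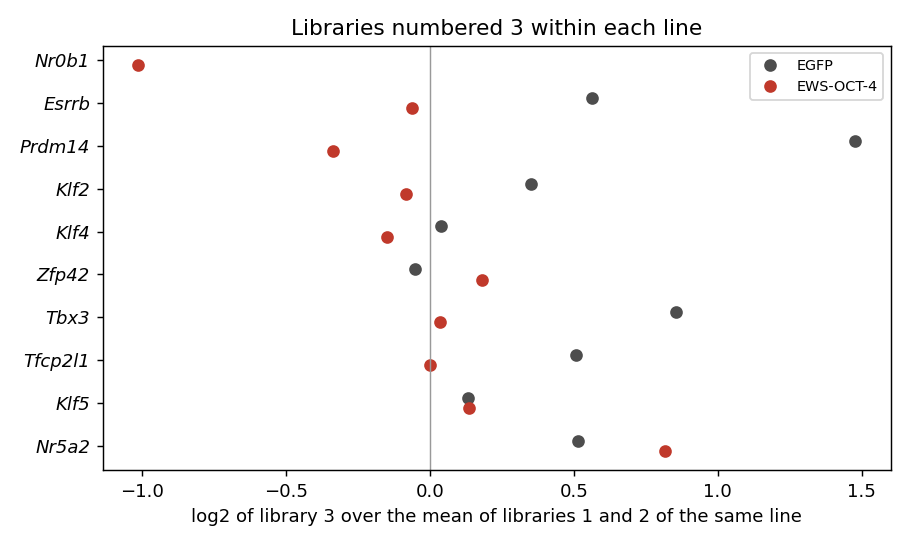
Library 3 of each line over the mean of libraries 1 and 2 of that line, as a log2 ratio for each naive factor (grey EGFP, red EWS-OCT-4). Most grey points lie right of 0 (8 of 9, Nr0b1 having no value), while red points lie on both sides, from -1.01 for Nr0b1 to 0.82 for Nr5a2.

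Relatives of the naive factors were called in both directions, at shares not far from those of all tested genes. Of the 17 KLF genes, 14 were tested, and 7 of these rose (50%, the 3 naive members included), 5 fell (35.7%) and 2 did not pass (median log2 difference 0.43), where 33.3% of all tested genes were called higher and 34.1% lower. Besides the 3 naive members, Klf3 rose from 34.2 ± 3.22 to 195 ± 36.5 CPM (SD, n = 3 per line; log2 2.51) and Klf15 from 2.85 ± 0.668 to 16.0 ± 5.54 CPM (2.47). Klf10, a TGF-β-induced gene, rose by 1.25, and Klf12 by 1.03 (adjusted p = 0.0163). The call of Klf12 was lost without EGFP replicate 1, EWS-OCT-4 replicate 2 or EWS-OCT-4 replicate 3 (adjusted p = 0.0592, 0.0592 and 0.0502). Klf6, an early response gene that is also active in placenta, fell from 734 ± 67.3 to 58.4 ± 9.50 CPM (log2 -3.65, SE 0.15, adjusted p = 5.4e-08). Klf7, Klf11, Klf13 and Klf16 fell as well, with log2 differences of -1.58, -1.49, -0.88 and -0.71. Klf8 (-0.17) and Klf9 (-0.22, adjusted p = 0.0915) did not pass, though Klf9 did when only library totals were used for scaling (adjusted p = 0.0441) or when both libraries numbered 3 were left out (0.0303). Under none of the alternatives did a called KLF gene change direction.

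Among the other relatives, Esrra, a receptor of energy metabolism related to Esrrb, rose from 100.3 ± 8.94 to 251 ± 20.1 CPM (log2 1.32). Yy1, the widely expressed zinc finger gene from whose lineage Zfp42 arose, fell from 262 ± 26.3 to 88.3 ± 9.79 CPM (-1.57, SE 0.13, adjusted p = 4.2e-06) where Zfp42 rose. Yy2 did not pass (0.17). Prdm1, a repressor known from germ cell specification and placenta, rose from 28.6 ± 1.72 to 54.5 ± 7.39 CPM (0.93). Tfcp2, a relative of Tfcp2l1, differed by 0.89 (adjusted p = 0.0132), a call lost without EGFP replicate 1, EGFP replicate 2 or EWS-OCT-4 replicate 2, where the adjusted p lay between 0.0511 and 0.0597. The third CP2 gene of this kind, Ubp1, did not pass (log2 -0.00, or -0.0041). Tbx2, Tbx4, Tbx5, Nr5a1, Nr0b2, Prdm6 and Esrrg were too low to be tested. The 27 relatives, of which 17 were tested, include every KLF gene other than the naive members, so the 2 counts share genes. Of the 17, 7 rose (41.2%) and 6 fell (35.3%), near the 33.3% and 34.1% of all tested genes, with a median of -0.00 (-0.0041).

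**Figure D4:**
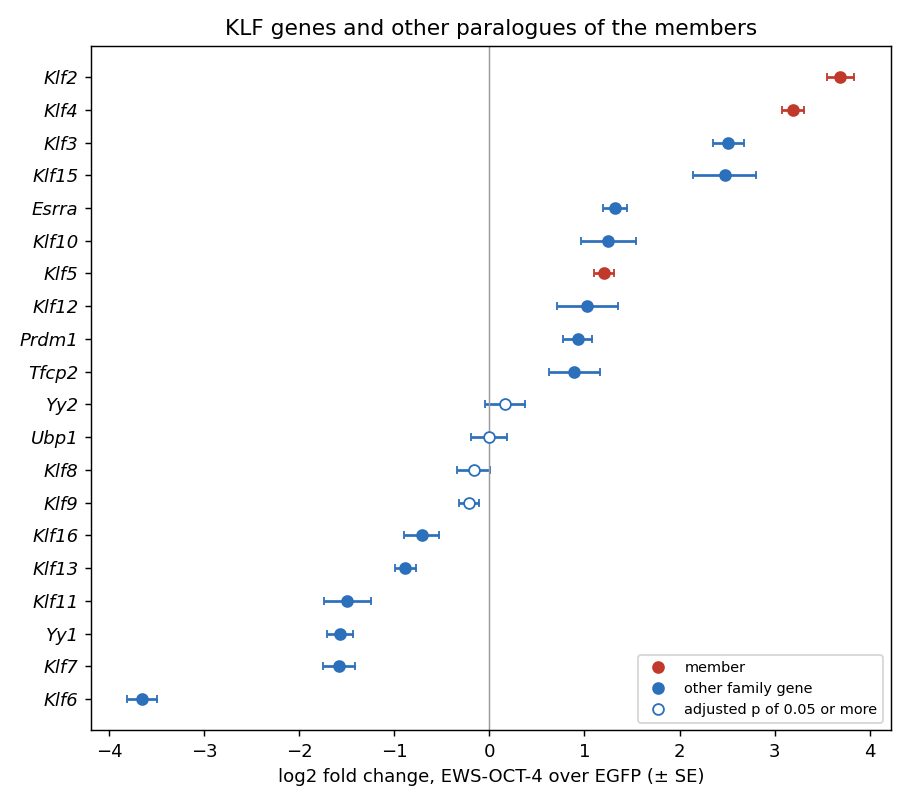
Fitted log2 fold change with SE for tested KLF genes and other relatives (red for naive members, blue for the rest, open where the adjusted p was 0.05 or more). Klf2 and Klf4 lead at 3.69 and 3.19, Klf6 lies lowest at -3.65, and Yy1 and Esrra lie on opposite sides of 0.

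Of 24 other network genes, 22 rose, 0 fell and 2 did not pass, with a median of 2.50. Over all tested genes, 33.3% were called higher and 34.1% lower. The largest rises were in Fgf4, an FGF ligand driven by OCT-4 and SOX2 (0.333 ± 0.325 to 131 ± 14.0 CPM), Tdh, the threonine dehydrogenase of mouse stem cells (0.789 ± 0.617 to 230 ± 20.9 CPM), and Tdgf1, a Nodal co-receptor (2.12 ± 0.304 to 538 ± 33.9 CPM). The size of the Fgf4 and Tdh differences depended on EGFP replicate 3, the EGFP library with the most counts of both. Without it their log2 differences grew from 8.52 to 9.42 and from 8.14 to 9.01. Fbxo15 (0.09) and Trim71 (-0.10) did not pass, and Fbxo15 passed without EGFP replicate 3 (0.43, adjusted p = 0.0195). Formative and primed epiblast genes, which mark the state that follows the naive one, were mostly higher among those tested. Of 15 such genes 11 were tested, 9 rose and 2 fell (Dnmt3a and Dnmt3b, de novo DNA methyltransferases, -0.63 and -0.79), with a median of 6.52. The shares called were 81.8% higher and 18.2% lower, beside the 33.3% and 34.1% of all tested genes. Fgf5, Zic5, Sox3 and Cdh2 were too low to be tested, and Fgf5 had 1 count under EGFP and 0 under EWS-OCT-4. Foxd3 rose from 0.0898 ± 0.0983 to 22.2 ± 8.58 CPM (log2 7.76, or 8.90 without EGFP replicate 3). Zic2 stood at 771 counts under EWS-OCT-4 and at 3 under EGFP, all in EGFP replicate 2. That is a 329-fold difference (112 to 1601, exact 95% limits, counting error only). Without that library Zic2 was at least 110.2-fold higher, against the floor of 3 counts per library. The call on Dnmt3a was lost without EGFP replicate 2 (adjusted p = 0.0636).

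Genes of signalling paths that act on the naive factors, feedback genes included, were called in both directions. In the LIF-STAT3 list, 5 of 10 rose (Lifr, Il6st, Tyk2, Socs3 and Pim3), 3 fell (Lif, Jak1 and Jak2) and 2 did not pass (Stat3 and Pim1), beside 33.3% of all tested genes called higher and 34.1% lower. The call on Jak2 was lost without EGFP replicate 1, EGFP replicate 2 or EWS-OCT-4 replicate 2 (adjusted p = 0.0740, 0.0886 and 0.0915), and Pim1 was called lower without EGFP replicate 3 (0.0322). The receptor subunit Lifr rose from 12.5 ± 2.71 to 66.1 ± 3.33 CPM (log2 2.41), the feedback inhibitor Socs3 rose from 105 ± 16.2 to 381 ± 136 CPM (1.86), and Lif itself fell from 11.0 ± 2.07 to 0.975 ± 0.179 CPM (-3.47). Stat3, the signal transducer, did not pass (169 ± 19.9 and 184 ± 20.7 CPM, log2 0.12, adjusted p = 0.442). In the WNT-TCF list, 9 of 10 genes were tested, of which 5 fell (Gsk3b, Tcf7l1, Axin1, Ctnnb1 and Apc), 1 rose and 3 did not pass (Gsk3a, Axin2 and Tcf7), beside 34.1% of all tested genes called lower. Gsk3b, the kinase that marks β-catenin for breakdown, fell from 272 ± 6.55 to 106 ± 7.37 CPM (-1.35), and the scaffold gene Axin1 fell by 0.74. Tcf7l1, the repressor of several naive genes, fell from 474 ± 17.7 to 217 ± 20.5 CPM (-1.12, SE 0.12, adjusted p = 1.5e-05). The 1 that rose, Tcf7l2 (0.49, adjusted p = 0.0142), lost its call without EGFP replicate 1 or 2 (adjusted p = 0.0726 and 0.0637). Of 10 cofactors of the naive factors, 4 rose (Nacc1, Cbfa2t2, Ncor1 and Kdm1a), 4 fell (Nrip1, Ehmt1, Ehmt2 and Crebbp) and 2 did not pass (Ncoa3 and Ep300), shares near those of all tested genes (33.3% and 34.1%). Nacc1, a BTB protein linked to Nanog, rose from 11.5 ± 2.12 to 215 ± 36.4 CPM, and Nrip1, a corepressor of nuclear receptors, fell from 38.2 ± 4.22 to 4.41 ± 1.18 CPM. Cbfa2t2, the corepressor partner of PRDM14, differed by 0.67 (adjusted p = 0.0309), a call lost on leaving out any 1 library other than EWS-OCT-4 replicate 3 (adjusted p = 0.0589 to 0.121). Crebbp (adjusted p = 0.0297) lost its call without EGFP replicate 3, EWS-OCT-4 replicate 1 or EWS-OCT-4 replicate 2, where the adjusted p reached 0.121, and Kdm1a (0.0463) without any 1 library other than EWS-OCT-4 replicate 3, where it reached 0.205. Ncoa3 was called higher without EGFP replicate 3 (0.0295).

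Markers of other cell types were followed beside the naive factors, because Esrrb, Klf5, Nr5a2 and Tbx3 are also used in other lineages. All 16 trophoblast markers fell, with a median of -7.17, or -6.70 with the 3 that had no count in the EWS-OCT-4 line (Plac1, Prl3d1 and Tpbpa) set at their bound. Over all tested genes, 34.1% were called lower and 33.3% higher. Plac1 was at least 337-fold and Prl3d1 at least 107-fold lower, and Gata3 fell from 332 ± 26.7 to 0.453 ± 0.253 CPM. The bound for Prl3d1 pools unequal EGFP libraries, at 39.8, 43.8 and, in EGFP replicate 3, 4.74 CPM. The primitive endoderm list (14 genes, 9 tested) had 7 falls and 2 rises (Gata4 and Lama1), and summed to 651 to 916 CPM in the EGFP line and to 212 to 286 CPM in the EWS-OCT-4 line. The EGFP sum was led by Sparc (339 ± 96.0 CPM) and Col4a1 (168 ± 42.0 CPM), beside 31.2 ± 5.33 CPM for Gata6. Sox7, Sox17, Foxa2, Hnf4a and Cubn were too low to be tested. The largest falls of the list were in Pdgfra, Dab2 (-5.70) and Gata6 (-4.85). Pdgfra had 120 counts against 1 (93.6-fold lower, exact 95% interval 16.5 to 3728, counting error only). The 1 Pdgfra count lay in EWS-OCT-4 replicate 1, without which the gene was at least 10.6-fold lower, and Gata4 differed by 3.80, or by 4.75 without EGFP replicate 1. Feeder fibroblast markers were low in both lines, at 25.1 to 27.9 CPM against 36.3 to 43.8 CPM over 12 genes. Of 8 tested, 2 rose (Thy1 and Pdgfrb), 1 fell (Postn, at least 34.1-fold lower) and 5 did not pass (Col1a1, Col1a2, Col3a1, Col5a1 and Fbln1). These shares of 25% higher and 12.5% lower were below those of all tested genes. Thy1 differed by 4.81, or by 5.43 without EGFP replicate 1. The call on Pdgfrb was lost without EGFP replicate 1 or EWS-OCT-4 replicate 2 (adjusted p = 0.0550 and 0.0628). The part that the trophoblast and endoderm markers have in the difference of the naive factors was not tested.

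**Figure D5:**
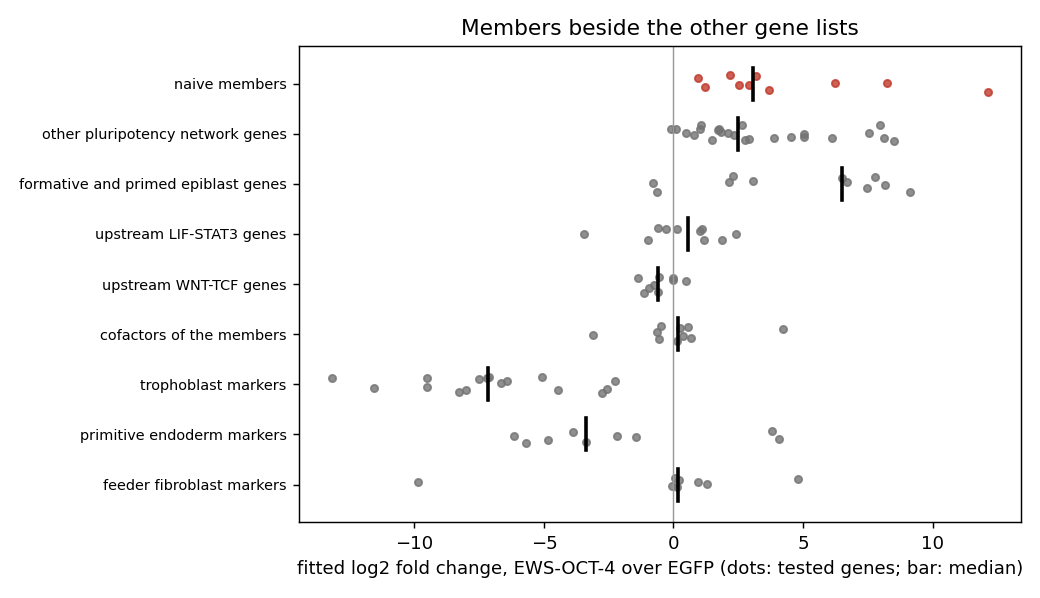
Fitted log2 fold change, EWS-OCT-4 over EGFP, of each tested gene in the naive list (red) and the other lists (grey), with the median as a bar. The 10 naive factors lie between 0.95 and 12.13, other network genes around 2.50, and trophoblast markers all below 0 with a median of -7.17.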

How the data were processed

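Libraries were made from Trizol-extracted total RNA with a Lexogen QuantSeq kit, which tags transcript 3′ ends, per the labels' protocols. The submitters' processing notes name Bowtie2, edgeR and mm10, while for the counter, annotation, strand setting and versions nothing is given in the sources used here. The deposited values are raw counts per gene symbol, 1 file per library. The 35 symbols that occurred on more than 1 line (79 lines) were summed.

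Samples were grouped by title. Counts were scaled by TMM, passed through edgeR's filterByExpr (at its minimum count of 10 and total of 15), then tested line against line with edgeR 4.0.16 (robust quasi-likelihood F test, 2-sided, Benjamini-Hochberg over all 13467 tested genes, threshold 0.05). The biological coefficient of variation was 19.3%. CPM divide by the library total times its TMM factor (0.971 to 1.03). The SE is the log2 fold change divided by the square root of F. In simulated data for this comparison (13262 genes, 100 changed per size), the test recovered 76% of 2-fold and 100% of 4-fold changes. Of its calls, 5.88% were false. Few genes were changed there, unlike here. Changes were placed only in genes above a minimum mean count, and all genes were given the same spread. The recovery figures therefore do not cover low-count genes or libraries that stand apart. Lists are described by counts and medians only. A gene nearly without counts in 1 line passed the filter only through the other line, and could be called only in that direction. Exact intervals are Clopper-Pearson (scipy 1.17.1) on counts pooled over the libraries of a line. They carry counting error only, not the spread between libraries. Gene positions are from GENCODE M21 (GRCm38, the assembly of mm10).

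The naive factors and all lists were chosen with earlier results of these data known. Named were all 10 naive factors, in each other list the up to 3 called genes with the largest change, every called relative of a naive factor, and the genes behind a count of 5 or fewer. Other genes named (Pou5f1, the stem cell markers, and Klf8, Klf9, Yy2, Ubp1 and untested relatives) are given as checks or to complete a family. Untested formative genes are named to complete their list. Krt8, Gata2, Cdx2, Sparc and Col4a1 were named outside the rule, as examples of single markers. A gene that the rule names among the formative genes is not reported here. Alternatives were single libraries left out, both libraries numbered 3 left out, a replicate block, DESeq2 size factors, library totals, Rn45s left out, a filter at a mean of 10 CPM and no filter, limma-voom (limma 3.58.1), DESeq2 1.42.0, a test against 1.5-fold and an adjusted p of 0.01.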

Additional observations from a re-analysis of the deposited data

How the results depend on the processing

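All 10 naive factors kept their direction in each of the 17 alternatives that tested them, and 168 of 169 such values kept their side of the threshold. The exception was Nr5a2 against a 1.5-fold change (adjusted p = 0.0549). Prdm14 was not tested at a mean of at least 10 CPM. The median lay between 3.03 and 3.06 with single libraries left out. Same-numbered libraries of the 2 lines deviated together only weakly (r across genes 0.040, 0.052 and 0.15 for numbers 1, 2 and 3), and EGFP replicate 1 correlated best with EWS-OCT-4 replicate 2, so the numbers were not taken as pairs. With a replicate block 10 naive factors were called higher, and over all genes 4387 were called higher and 4581 lower (4482 and 4591 without it). Among list genes the block ended only the call on Kdm1a (adjusted p = 0.0597).

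Counts of small lists moved more. Against a 1.5-fold change, 0 WNT-TCF genes were higher and 2 lower, 1 cofactor was higher and 1 lower, 0 formative genes were lower and 1 feeder marker was higher. At an adjusted p of 0.01, 0 WNT-TCF genes, 1 cofactor and 1 feeder marker were higher and 1 formative gene was lower. With a mean of at least 10 CPM, 4 relatives, 1 endoderm marker and 0 feeder markers were higher and 0 feeder markers lower. With single libraries left out, WNT-TCF genes higher ranged from 0 to 1, cofactors higher from 2 to 4, formative genes lower from 1 to 2, and feeder markers higher from 1 to 2. Which of these moves reflect fewer genes or samples and which another cause was not tested. Library totals moved the median of all genes to -0.06. Depth limits Nr0b1 and Prdm14 in the EGFP line, where 1 and 5 counts in all were seen.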
